A study of Mus musculus with 18 samples.

Results

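The genes that copy the DNA and the genes that divide the cell were described across 18 expression arrays of mouse embryonic stem cells (ESCs). A list of 34 members was read from the array's annotation by gene symbol, 17 of them replication genes and 17 mitotic genes. Each gene is represented by its brightest probe set, judged by the mean of all 18 arrays. This gave values for 33 of the 34 members, among 18193 genes in all, and Ccnb1 was not analysed here. The 33 members have 75 probe sets, and 24 of them have more than 1. The replication genes encode the MCM helicase subunits (Mcm2 to Mcm7), the loading factors Cdc6 and Cdt1, the helicase partners Cdc45, Gins1 and Gins2, the sliding clamp Pcna, the nucleotide enzymes Rrm1, Rrm2 and Tyms, and the E-type cyclins Ccne1 and Ccne2. The mitotic genes encode the cyclins Ccna2 and Ccnb2 and their kinase Cdk1, the kinases Plk1, Aurka and Aurkb, the checkpoint proteins Bub1, Bub1b and Mad2l1, the anaphase activator Cdc20, the separase inhibitor Pttg1 (securin), and structural or motor proteins (Top2a, Mki67, Birc5, Cenpa and Kif11).

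As background, the replication genes are transcribed around the G1/S boundary, largely through E2F factors, and the mitotic genes later, in G2, through the DREAM and MuvB complexes acting at promoter elements called the cell cycle homology region and the CCAAT box. Mouse ESCs cycle fast with a short G1 phase. In 2i, a medium with inhibitors of the MEK and GSK3 kinases, they self-renew in a more uniform state than in serum. LY294002 inhibits PI3K, the lipid kinase whose catalytic subunit is p110 alpha. Max is the obligate partner of the Myc proteins on DNA.

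All arrays were of 129SV EBRTcH3 ESCs or lines made from them, grown with LIF and serum unless 2i is named. Parental EBRTcH3 cells in serum were untreated or given LY294002 for 5 days, each in 2 replicates, or given it for 2 days on 1 array. The second parental replicate holds the day 2 array. Parental cells in 2i were untreated or given 2i with LY294002, 1 array each, and the treatment lasted 5 days by the sample title. EBRTcH3 cells overexpressing wild-type c-Myc and EBRTcH3 cells overexpressing c-Myc with the T58A substitution were each untreated or given LY294002 for 2 or 5 days, 1 array each. The description of the untreated T58A sample names N-Myc as overexpressed, where the titles name c-Myc (T58A), and the titles were followed here. Max-null ESCs were untreated or given doxycycline (Dox) for 4 or 6 days, 1 array each. Max-null ESCs overexpressing p110 alpha were untreated or given Dox for a time the labels do not give, 1 array each. The labels do not say whether an overexpressing line is 1 clone, nor that replicates came from separate cultures, so p-values measure the spread between these arrays only.

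The values are log2 intensities. The stem cell genes were above the 40th percentile of the table (4.64) on all arrays, with a mean over 9 such markers between 12.2 and 12.7. Their levels differed, with Pou5f1 between 12.63 and 13.16 and Utf1 between 8.34 and 11.51. Of 7 fibroblast markers Col3a1, Postn and Lum stayed below that percentile on all arrays. Of the other fibroblast markers Thy1 was above it on all 18 arrays (5.15 to 6.69), Col1a2 on 14, Dcn on 9 and Col1a1 on 1. The probe set of Max read 8.17 to 8.71 in the EBRTcH3 lines and 6.33 to 7.18 in the Max-null lines. It read 7.09 before Dox and 6.89 and 7.18 after it, so it does not follow the Dox treatment, and whether it lies in the part of Max that Dox switches off is not known here. The Myc probe set read 7.51 and 6.99 in the untreated lines labelled wild-type and T58A c-Myc and 7.43 in the untreated second parental replicate, and Pik3ca, which encodes p110 alpha, read 8.82 in the untreated line labelled p110 alpha and 8.50 in the plain one. The array therefore gave no check of the overexpressed genes. The 4 arrays of the first parental replicate and 2i have medians of 5.03 to 5.05 and the other 14 have medians of 5.31 to 5.52. No label names these as separate runs. The Max-null array at day 6 of Dox had the highest median (5.52) and the smallest spread of values (SD 2.36).

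In 2i, every measured mitotic gene was lower than in serum, while the replication genes lay on both sides of 0. The 2 untreated arrays of these media gave a median log2 difference, 2i minus serum, of -0.72 over the 16 mitotic genes and -0.01 over the 17 replication genes, against 0.02 over all 12580 genes. All 16 mitotic genes were below 0, between -0.41 and -1.27. Of the replication genes 8 were above 0 and 9 below. In bulk samples, fewer cells in mitosis and less mitotic RNA per cell cannot be told apart.

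Cenpa, which encodes the centromeric histone H3 variant, had the most negative difference of the members in this comparison, at 11.08 in serum and 9.81 in 2i. Cdc20 read 11.92 in serum and 10.77 in 2i, Ccnb2 read 11.11 and 10.09, and Pttg1 read 11.19 and 10.18. These 4 were the mitotic genes at least 2-fold lower, where 2.78% of all genes were. Mki67, whose protein coats mitotic chromosomes, read 10.35 and 9.38, and Plk1 9.86 and 9.04. The smallest differences were those of Mad2l1 (-0.41), Birc5 (-0.42), Cdk1 (-0.49) and Top2a (-0.55).

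The same cells under LY294002 gave a second pair of arrays for this comparison of media. All 16 mitotic genes were again lower in 2i, with a median of -0.75 and a range of -0.32 to -0.94. Cdc20 read 12.31 in serum with LY294002 and 11.39 in 2i with LY294002, Cenpa read 11.06 and 10.12, and Plk1 read 10.19 and 9.25. No mitotic gene reached 2-fold here, and the 1 member that did was Ccne1, at 10.42 in serum and 9.30 in 2i, where 2.57% of all genes were at least 2-fold lower. The replication genes had a median of -0.05, with 4 above 0 and 13 below.

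**Figure D1:**
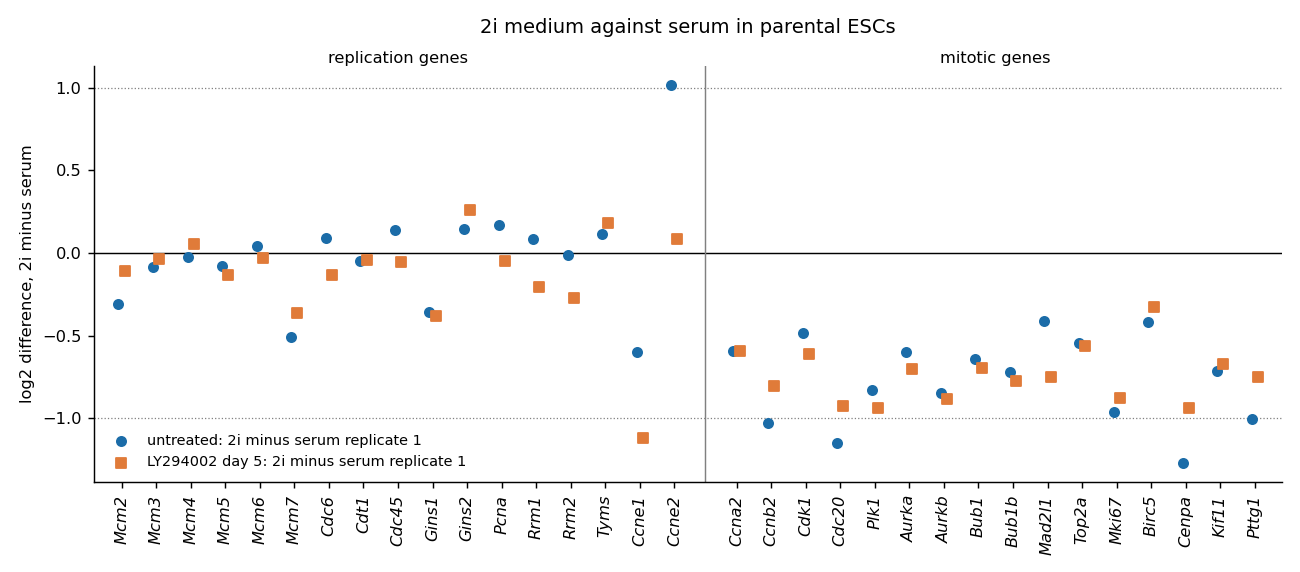
Log2 difference between 2i and serum (vertical axis) for each of 33 members (horizontal axis), for the untreated arrays (circles) and the arrays with LY294002 (squares), 1 array on each side of a difference. All 16 mitotic genes lie below 0 in both, and the replication genes lie on both sides of 0, with Ccne1, Mcm7 and Gins1 below -0.3 in both and Ccne2 at 1.02 untreated and 0.08 with LY294002. Dotted lines mark 2-fold.

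These 4 arrays were also fitted together with limma, with medium and LY294002 as separate terms, a fit chosen after the values above were seen and with 1 residual degree of freedom. By its adjusted p, 10 of the 16 mitotic genes fell in 2i (Aurkb, Bub1, Bub1b, Ccnb2, Cdc20, Cenpa, Kif11, Mki67, Plk1 and Pttg1) and 0 of 17 replication genes changed, where 3.15% of all 12456 genes fell. Cenpa fell by 1.10 (SE 0.14, adjusted p = 0.0326), Cdc20 by 1.04 (SE 0.12, adjusted p = 0.0302) and Mki67 by 0.92 (SE 0.11, adjusted p = 0.031). All 16 mitotic genes and 3 replication genes had an unadjusted limma p under 0.05, where 3481 of all 12456 genes had one. With no filter on low values the fit called 0 members, and on simulated data fits with 1 residual degree of freedom called unchanged genes more often than their threshold allows. The difference between the mitotic and the replication genes was itself not tested. The mean of the 7 trophoblast markers was 6.31 in serum and 6.91 in 2i untreated, and 6.33 and 6.59 with LY294002. Of the 9 stem cell markers 5 were above 0 and 4 below untreated, and 7 and 2 with LY294002. The lowest stem cell marker differed by -2.68 untreated and by -1.88 with LY294002. The part of these markers in this result was not tested.

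The second serum replicate was on the other set of arrays and was not used as the reference. With median-centred arrays and that replicate as the reference, the medians were -1.0 over the mitotic and -0.44 over the replication genes. Of the mitotic genes 14 of 16 stayed below 0 there. Pttg1 turned direction, to 1.46, and read 8.73 on that array and 11.19 on the first serum array. Aurkb turned too, to 0.11, and read 7.99 and 8.94. Of the replication genes 4 of 17 turned, namely Mcm3 (0.34), Cdc45 (-0.56), Rrm1 (-0.44) and Tyms (-2.03).

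All probe sets of the members, counted together with those already used above, gave the same picture. Of the 32 probe sets of mitotic genes, 30 were lower in 2i untreated and 30 with LY294002. Of the 43 probe sets of replication genes, 24 were lower untreated and 31 with LY294002.

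Further mitotic genes outside the members lay the same way. Of 58 such genes, 51 were below 0 in the untreated pair, with a median of -0.48, and the largest differences were those of Aspm (-1.17), a spindle pole protein, Cdca2 (-1.16), a chromatin phosphatase subunit, and the mitotic phosphatase Cdc25b (-1.10). The fit of 4 arrays called 11 of these 58 lower and 0 higher, where 3.15% of all genes were lower, and with no filter on low values it called 0. Of 39 further replication genes 18 were above 0 and 21 below, and the fit called 0. Dbf4, the activator of the Cdc7 kinase, was the lowest of them untreated at -1.02. Among 24 genes of the G1 phase and its inhibitors, Ccnd2 (cyclin D2) differed by -2.66, and the kinase inhibitors Cdkn1a (p21) by 1.72 and Cdkn2a by 1.52.

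The largest untreated differences among the replication genes were those of the E-type cyclins, which start S phase with Cdk2, and of Mcm7. In the fit of 4 arrays the 3 with an unadjusted limma p under 0.05 were Ccne1, Mcm7 and Gins1, where 3481 of all 12456 genes had one. Ccne2 read 6.83 in serum and 7.85 in 2i, a difference of 1.02 where 3.05% of all genes were at least 2-fold higher. With LY294002 it read 7.44 in serum and 7.53 in 2i, a difference of 0.08. Ccne1 lay the other way, at 9.90 in serum and 9.30 in 2i. Mcm7 read 13.04 and 12.53. Gins1 differed by -0.35 untreated and -0.38 with LY294002. Mcm2 differed by -0.31 untreated, and the other 12 replication genes by less than 0.2 either way.

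The promoters of the genes that were lowest in 2i are shown with those of replication genes that were not, to set their sequence elements beside these values, and the replication genes shown, Mcm6 and Cdc6, were chosen after their values were seen. RefSeq windows of the build GRCm38.p6, which run from 250 bases before the start of a gene to 50 after it, matched 27 of the 33 members. Both strands were searched for the cell cycle homology region (TTTGAA or TTCGAA), the CCAAT box (CCAAT) and the E2F site (TTTGGCGC, TTTCGCGC or TTTCCCGC), and the capitals mark the matches, which may overlap. Each stretch ends 30 bases past the start.
Cenpa, chr5:30666636-30666915, plus strand: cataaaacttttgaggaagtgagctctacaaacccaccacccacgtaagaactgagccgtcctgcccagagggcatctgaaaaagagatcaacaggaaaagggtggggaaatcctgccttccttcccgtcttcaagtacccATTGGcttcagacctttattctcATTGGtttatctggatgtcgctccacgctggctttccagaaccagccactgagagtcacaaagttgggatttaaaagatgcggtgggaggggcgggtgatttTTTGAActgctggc
Cdc20, chr4:118437314-118437593, minus strand: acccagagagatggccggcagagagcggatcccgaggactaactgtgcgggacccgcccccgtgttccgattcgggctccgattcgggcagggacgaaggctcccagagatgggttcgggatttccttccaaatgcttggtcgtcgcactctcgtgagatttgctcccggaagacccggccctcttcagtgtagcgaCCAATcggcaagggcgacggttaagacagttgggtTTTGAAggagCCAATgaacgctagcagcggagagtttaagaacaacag
Ccnb2, chr9:70421525-70421804, minus strand: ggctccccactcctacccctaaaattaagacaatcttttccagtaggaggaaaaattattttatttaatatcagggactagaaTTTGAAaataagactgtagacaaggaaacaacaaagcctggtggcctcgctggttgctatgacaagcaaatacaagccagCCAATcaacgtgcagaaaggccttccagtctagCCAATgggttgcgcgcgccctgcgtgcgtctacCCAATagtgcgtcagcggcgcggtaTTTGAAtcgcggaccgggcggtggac
Pttg1, chr11:43425952-43426231, minus strand: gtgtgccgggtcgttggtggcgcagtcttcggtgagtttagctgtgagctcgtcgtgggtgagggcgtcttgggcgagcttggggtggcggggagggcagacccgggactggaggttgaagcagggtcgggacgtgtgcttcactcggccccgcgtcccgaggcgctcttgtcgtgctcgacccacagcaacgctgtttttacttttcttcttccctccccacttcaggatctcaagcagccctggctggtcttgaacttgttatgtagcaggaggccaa
Mcm6, chr1:128359676-128359955, minus strand: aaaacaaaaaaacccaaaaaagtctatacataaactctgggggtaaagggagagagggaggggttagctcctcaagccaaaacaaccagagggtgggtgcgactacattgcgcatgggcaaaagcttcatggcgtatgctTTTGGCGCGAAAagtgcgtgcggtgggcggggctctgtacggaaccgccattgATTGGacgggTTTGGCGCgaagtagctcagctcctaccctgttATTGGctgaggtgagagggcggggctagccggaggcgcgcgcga
Cdc6, chr11:98907901-98908180, plus strand: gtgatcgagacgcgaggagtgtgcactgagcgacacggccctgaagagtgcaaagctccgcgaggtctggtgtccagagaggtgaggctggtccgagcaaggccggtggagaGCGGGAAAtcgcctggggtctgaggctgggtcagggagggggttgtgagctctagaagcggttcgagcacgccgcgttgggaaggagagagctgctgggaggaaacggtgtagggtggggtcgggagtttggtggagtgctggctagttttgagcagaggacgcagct

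Over the whole windows, 11 of the 14 mitotic windows (78.6%) held a cell cycle homology region, against 3 of 14 replication windows (21.4%) and 19.2% of all 32851 windows. The same 11 mitotic windows held a CCAAT box as well, against 7.5% of all windows that held both. A CCAAT box was in 10 of the 14 replication windows and in 37.4% of all windows. The E2F site was in 6 replication windows and 1 mitotic window, against 1.8% of all windows. The mitotic windows without a cell cycle homology region were those of Birc5, Mad2l1 and Pttg1, which differed by -0.42, -0.41 and -1.01 in 2i. A match is a description of letters in the window, not of a factor bound there.

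LY294002 in serum was followed by higher values of a subset of the members of both groups by day 2. In the fit of the second parental replicate and both c-Myc lines (9 arrays, line as a block), 6 of 17 replication genes and 4 of 16 mitotic genes rose at day 2 and 0 fell, where 18.3% of all 13420 genes rose. The 6 were Ccne1, Ccne2, Cdc6, Gins2, Mcm6 and Rrm1, and the 4 were Aurkb, Ccna2, Ccnb2 and Mad2l1. All 10 moved the same way in each of the 3 lines. They were called from these same lines, which favours such agreement, so it is a description. At 30.3% of the members, the share is above the 18.3% of all genes, and the difference between these shares was not tested. The further mitotic genes outside the members did not lie higher as a set at day 2. Of these 58 genes 4 rose and 5 fell, with 22 above 0 and a median of -0.06, against 0.04 over all genes. Of 39 further replication genes 17 rose and 2 fell, with a median of 0.19.

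Ccne2 read 7.57 in the untreated parental cells, 7.23 in the wild-type c-Myc line and 7.23 in the T58A line. At day 2 it read 8.28, 8.41 and 8.22 in the same order, and at day 5 it read 7.99, 8.35 and 8.44. The untreated and treated arrays did not overlap, and Ccne2 rose by 0.96 (SE 0.15) at day 2 with an adjusted limma p of 0.00347. Ccne1 rose by 0.68 at day 2 (SE 0.07, adjusted p = 0.000893 with limma), from 10.17, 10.62 and 10.79 to 10.78, 11.36 and 11.48.

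Ccnb2, the B-type cyclin measured here, read 10.75, 10.76 and 10.69 untreated. It read 11.30, 11.33 and 11.25 at day 2 and 11.38, 11.48 and 11.49 at day 5, above all 3 untreated arrays. Its limma estimate was 0.56 (SE 0.07, adjusted p = 0.00157) at day 2 and 0.71 (SE 0.07, adjusted p = 0.000314) at day 5. Aurkb, the kinase of the chromosomal passenger complex, read 7.99, 8.23 and 8.30 untreated, 8.78, 8.74 and 8.43 at day 2, and 9.19, 9.27 and 9.47 at day 5. It rose by 1.14 at day 5 (SE 0.13, adjusted p = 0.000598 with limma), with no overlap between the untreated and the treated arrays.

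At day 5, 5 replication genes and 8 mitotic genes rose and 1 of each fell, where 25.7% of all genes rose and 18.5% fell. After centring the arrays on their medians, 2625 genes were higher and 3110 lower, in place of 3444 and 2478. Of the 10 genes that had risen at day 2, 9 were among these 15, without Mcm6. The mitotic genes added at day 5 were Bub1 (0.30), Cenpa (0.28), Plk1 (0.26) and Pttg1 (1.68). The members that fell were Mcm5 (-0.25) and the spindle motor Kif11 (-0.32). The helicase genes Mcm2, Mcm3, Mcm4 and Mcm7 and the clamp Pcna did not pass at either day, with estimates between -0.23 and 0.20. Tyms, thymidylate synthase, was low on all arrays (4.61 to 6.77) and did not pass.

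The first parental pair, which this fit does not hold, differed for several of these genes. Of the 15 members called at day 5, 7 had the opposite sign there, most of them with almost no change. Bub1 read 11.02 untreated and 11.01 at day 5 in that pair, Cenpa 11.08 and 11.06, Gins2 9.61 and 9.59, and Mcm5 12.12 and 12.13. Kif11 read 9.30 and 9.55. Aurkb read 8.94 untreated and 8.91 at day 5 in that pair, and Pttg1 read 11.19 and 11.08. Ccna2 (9.97 and 10.58), Ccne2 (6.83 and 7.44), Ccne1 (9.90 and 10.42), Cdc6 (9.07 and 9.52) and Mad2l1 (10.52 and 10.94) were higher at day 5 there too.

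Leaving out the parental, the wild-type or the T58A line left 5, 2 or 6 calls at day 2, and leaving out the wild-type line left 5 at day 5. The mean of 7 trophoblast markers was 6.28, 6.16 and 6.33 in the untreated second parental, wild-type and T58A cells. It was 6.65, 6.13 and 6.10 at day 2, higher in the parental cells only, and 7.53, 7.15 and 6.99 at day 5, higher in all 3 lines. In the first parental pair it was 6.31 and 6.33. The list holds Krt8 and Krt18, and Elf5, which lay below the 40th percentile on all arrays. Their part in these results was not tested. Between day 2 and day 5, 1 replication and 5 mitotic genes had an unadjusted limma p under 0.05, where 3161 of all 13420 genes did. Of the members 0 passed the adjusted limma test, where 2.35% of all genes did. Without the parental line this count was 3, and without its untreated array 2.

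**Figure D2:**
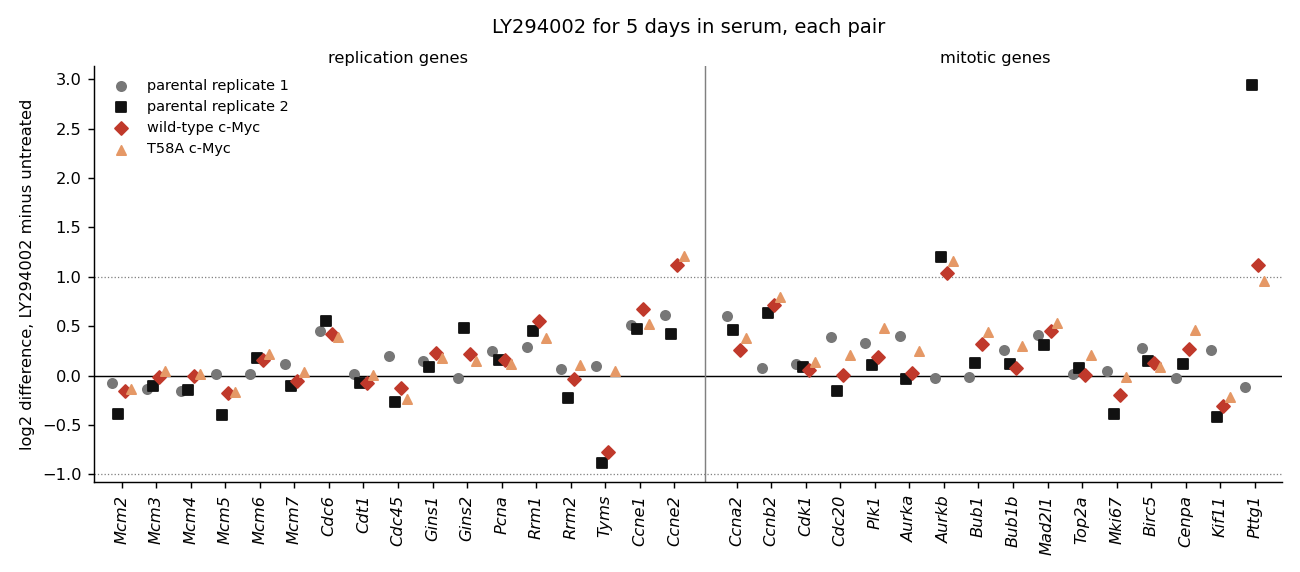
Log2 difference between 5 days of LY294002 and no treatment (vertical axis) for each of 33 members (horizontal axis) in 4 pairs of arrays, marked by symbol, with dotted lines at 2-fold. Ccne1, Ccne2, Cdc6, Ccna2 and Mad2l1 lie above 0 in all 4 pairs, while Aurkb and Pttg1 are near 0 in the first parental replicate.

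Over all 4 pairs at day 5 (8 arrays, pair as a block), 7 members rose and 0 fell, where 7.42% of all 13404 genes rose. They were Ccna2, Ccnb2, Ccne1, Ccne2, Cdc6, Mad2l1 and Rrm1, and all 7 were also called by the fit of 9 arrays. Ccne2 rose by 0.84 (SE 0.08, adjusted p = 0.0147 with limma) and Ccne1 by 0.55 (SE 0.08, adjusted p = 0.0247 with limma). The count was 0 without the wild-type pair, 0 without the T58A pair and 17 without the first parental pair.

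By line, 4 replication and 2 mitotic genes had an unadjusted limma p under 0.05 in the parental pairs, where 2927 of all 13404 genes did. Of the members 0 passed there, where 0.53% of all genes did. Without the first parental pair the count was 12, and without the second it was 2. In the c-Myc pairs 1 member rose, Ccne2 by 1.16 (SE 0.11, adjusted p = 0.0392 with limma), where 1.09% of all genes did. It was lost without either c-Myc pair, and without either parental pair the count was 11 or 12. With centred arrays the split over all genes was 53 higher and 81 lower in place of 15 and 56 in the parental pairs, and 341 and 286 in place of 146 and 205 in the c-Myc pairs. The difference between the c-Myc and the parental response was tested directly and passed for 0 members and 0.0% of all genes, with 1 member and 457 genes at an unadjusted limma p under 0.05. Its precision was low, with 2 residual degrees of freedom and a median SE over the members of 0.17, and for Ccne2 it was 0.65 (SE 0.16, adjusted p = 0.996 with limma). Without the second parental pair 3 members passed.

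In 2i, LY294002 moved 0 members by 2-fold, where 2.67% of all genes moved that far. The median was 0.21 over the mitotic genes, with 13 of 16 above 0, and 0.01 over the replication genes. Centring the arrays moved the median of all genes by 0.11 here. Ccna2 read 9.38 in 2i and 9.98 with LY294002, and Cdc20 read 10.77 and 11.39. Ccne2 was lower with LY294002 in 2i (7.85 and 7.53), while both serum pairs of the parental cells were higher with it.

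Other genes of the pathway are given beside the shares of all genes at day 5, of which 25.7% rose and 18.5% fell. Of 39 further replication genes 16 rose and 6 fell at day 5, led by the chromatin assembly factor Chaf1b (0.71), the clamp loader Rfc5 (0.87) and the dUTPase Dut (0.99). Of 58 further mitotic genes 7 rose and 11 fell, among them the midzone motor Kif23 (0.49), Ckap2 (-0.52) and the kinase Melk (0.42). Of 24 G1 genes 10 rose and 5 fell, with the pocket protein Rbl2 at -1.23, Cdkn1a at -1.49 and the repressor E2f8 at 0.91. The median was 0.17 over the further replication genes, -0.05 over the further mitotic genes and 0.05 over all genes.

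Compared with the second parental replicate over days 0, 2 and 5, the c-Myc lines had higher values of a few replication genes. Of 17 replication genes 6 were higher and 0 lower, and of 16 mitotic genes 2 were higher and 1 lower. Of all genes 7.03% were higher and 7.21% lower. The untreated, day 2 and day 5 arrays of each line served as its replicates, and the parental side is 1 replicate. The p-values therefore measure the spread between these arrays. The replication genes were Ccne1 (0.61), Gins2 (0.38), Cdc6 (0.36), Cdc45 (0.28), Rrm1 (0.26) and Gins1 (0.26), and the higher mitotic genes were Ccna2 (0.26) and Birc5 (0.23). The other probe set of Cdc45 disagreed. Untreated, it read 7.49 in the parental, 7.15 in the wild-type and 7.07 in the T58A cells. It was above the parental value only in the T58A line at day 5 (6.64 against 6.45). Mki67 was lower by 0.40 (SE 0.09, adjusted p = 0.0293 with limma). Without either c-Myc line the count was 0, and without the untreated parental array it was 4. With centred arrays the split over all genes was 1566 higher and 854 lower in place of 943 and 967. Between the T58A and the wild-type line 0 members passed, and 0.0% of 13420 genes did, with 464 at an unadjusted limma p under 0.05.

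Pttg1 was the member with the widest range over the 9 serum arrays of this fit. Securin holds separase inactive until anaphase. It read 8.73 in the untreated second parental replicate, the lowest of its 18 values, against 10.94 in untreated wild-type and 11.01 in untreated T58A cells. Among the 9 arrays of this fit, its other probe sets were also lowest on that array. Of these, 1 read 6.51 there, 9.06 in wild-type and 9.37 in T58A cells without treatment, and the other read 5.54, 6.71 and 6.47. On the untreated first parental array the former read 9.43 and the latter 5.39. Over all 18 arrays the latter was therefore not lowest on the untreated second parental array.

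With LY294002 the parental cells read 10.87 at day 2 and 11.68 at day 5, the wild-type line 11.34 and 12.06, and the T58A line 11.29 and 11.97. The 3 lines spanned 2.28 untreated, 0.47 at day 2 and 0.38 at day 5. The estimate for the c-Myc lines against the parental cells was 1.01 (SE 0.32, adjusted p = 0.073 with limma) and did not pass. The untreated first parental replicate, on the other set of arrays, read 11.19, so the low untreated value rests on 1 array.

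Over the 9 arrays of this fit, the genes with a pattern most like Pttg1 among 2665 that passed the filter and spanned at least 1 on the log2 scale were Psors1c2, Nop9, Trappc6a, Mthfd2l and Cbs, with Pearson r of 0.98, 0.98, 0.98, 0.97 and 0.97. Each was lowest on the untreated array of the second parental replicate, where Mthfd2l read 5.79 against 6.97 to 7.94 on the other 8. The 9 arrays share lines and days, and these correlations are a description.

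**Figure D3:**
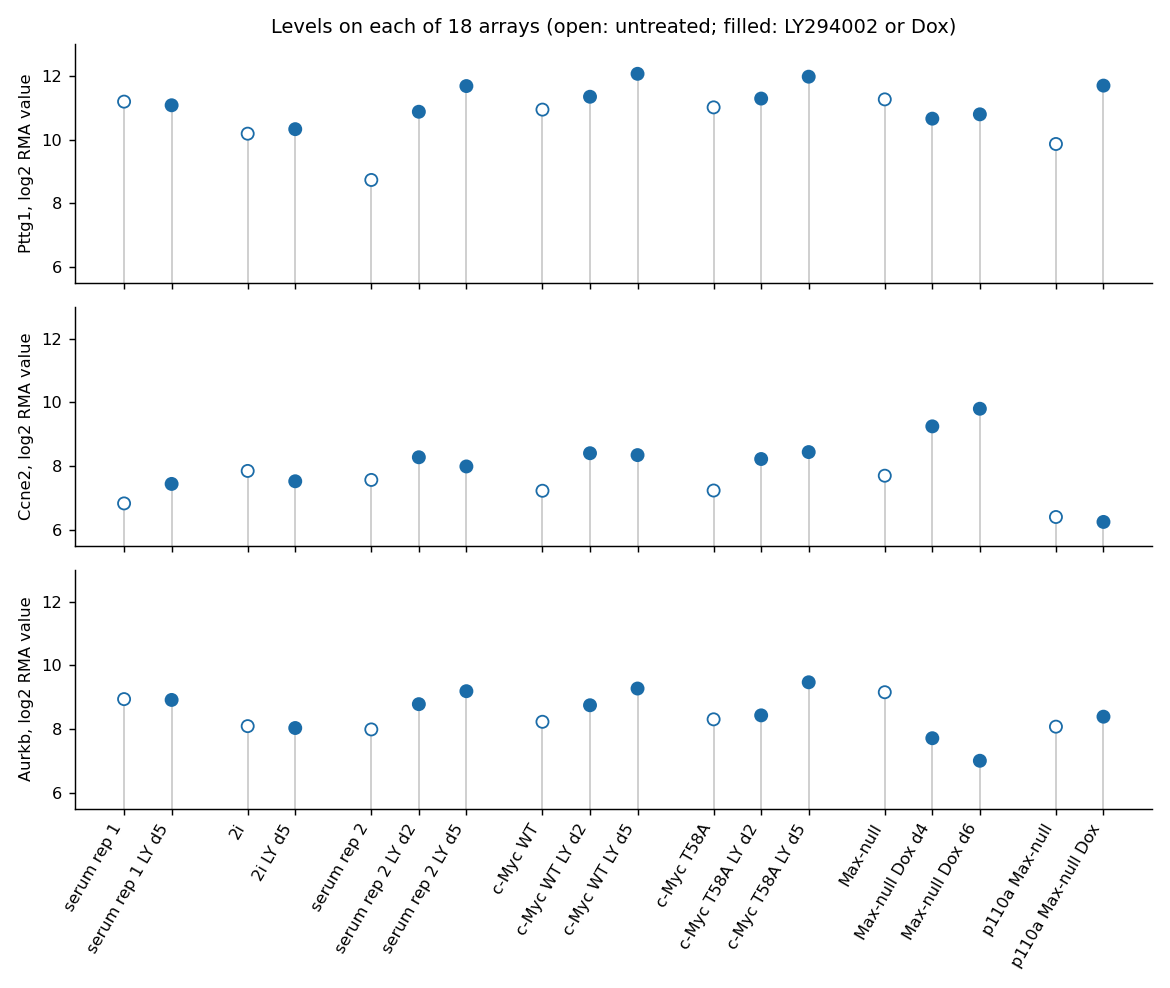
Log2 values of Pttg1, Ccne2 and Aurkb (vertical axes, starting at 5.5) on each of 18 arrays (horizontal axis), open for untreated arrays and filled for LY294002 or Dox. Pttg1 is lowest on the untreated array of the second serum replicate (8.73), Ccne2 is highest in Max-null cells at day 6 of Dox (9.80), and Aurkb is lowest there (7.00).

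In the Max-null ESCs, Dox was followed by lower values of several replication genes and of Aurkb and by a higher value of Ccne2. Of 17 replication genes 13 were below the untreated array at day 4 and 13 at day 6, with medians of -0.18 and -0.32, against -0.09 and -0.09 over all genes. The mitotic genes had medians of -0.01 and -0.23, with 8 and 10 of 16 below 0. Each of these differences is between 2 arrays and has no replicate check. The day 6 array also had a smaller spread of values than the untreated one (SD 2.36 against 2.57). The part of this spread in the day 6 differences was not tested.

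Ccne2 read 7.70 untreated, 9.25 at day 4 and 9.80 at day 6. It was the 1 member at least 2-fold higher on either day, where 5.19% of all genes were at day 4 and 8.91% at day 6. Aurkb read 9.15, 7.71 and 7.00 on the same arrays. It was the 1 member at least 2-fold lower at day 4, where 8.71% of all genes were. At day 6 Gins1, which read 10.35 untreated and 9.31, and Ccnb2, which read 11.17 and 9.98, joined it, where 15.6% of all genes were at least 2-fold lower. These counts are no larger than the shares of all genes would give.

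The licensing factor Cdt1 read 12.77, 12.18 and 11.77, and Cdc6 read 9.24, 8.78 and 8.85. By their brightest probe sets, the helicase subunits Mcm3 to Mcm7 were between -0.06 and -0.20 at day 4 and between -0.27 and -0.47 at day 6. Their other probe sets did not all go this way. For Mcm5, another probe set was higher on both days, at 10.48 untreated, 10.59 at day 4 and 10.69 at day 6. Mcm4, Mcm5 and Mcm7 each had a further probe set that was higher at day 4 and lower at day 6. All probe sets of Mcm3 were lower on both days. Cdc45 and Rrm1 were above 0 on both days (0.24 and 0.29, and 0.10 and 0.11). Aurka, Bub1b, Cdc20, Top2a and Mki67 were also above 0 on both days, with Mki67 at 0.53 and 0.12. The 2 probe sets of Ccna2 disagreed, at 0.22 and 0.27 for the one kept and -0.81 and -0.99 for the other.

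In the line labelled p110 alpha, Dox gave other values. Replication genes had a median of 0.06, with 10 of 17 above 0, and mitotic genes one of -0.05, with 6 of 16 above 0. Over all genes the median was 0.07, with 60.3% above 0, so the replication genes lay near the values of all genes. Ccne2 read 6.40 untreated and 6.25 with Dox, and Aurkb read 8.07 and 8.39. Pttg1 read 9.86 untreated and 11.69 with Dox, and it was the 1 member at least 2-fold higher, where 1.55% of all genes were. In plain Max-null cells Pttg1 read 11.26 untreated and 10.66 and 10.79 with Dox. The Dox days of the lines cannot be matched, since the labels give none for the p110 alpha line.

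**Figure D4:**
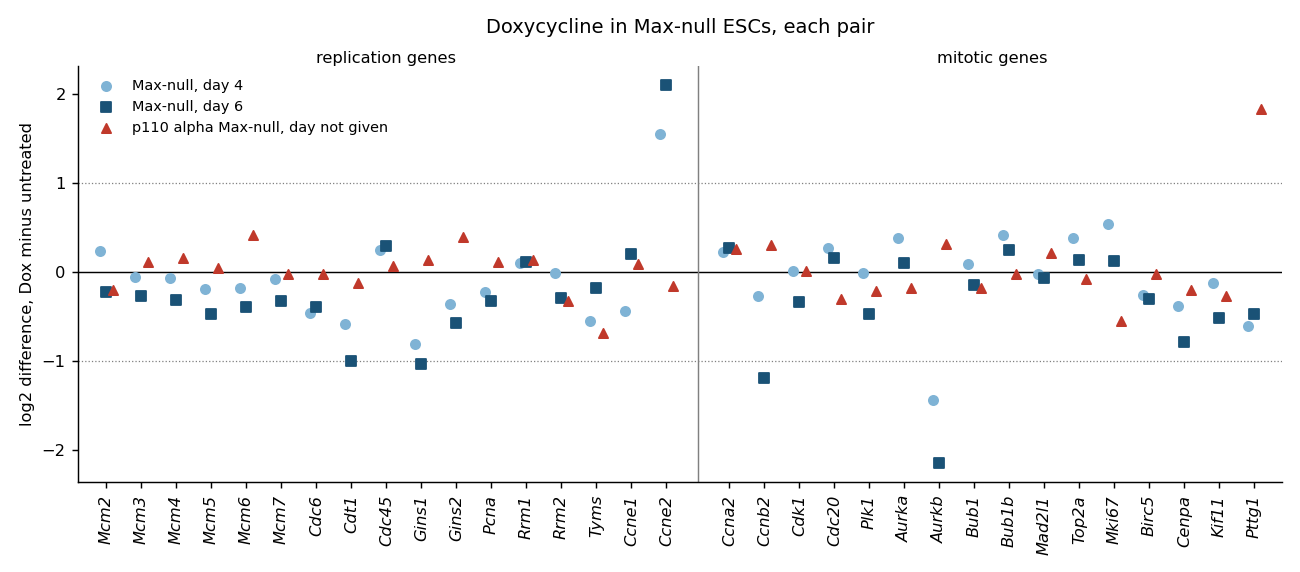
Log2 difference between Dox and no treatment (vertical axis) for each of 33 members (horizontal axis) in Max-null cells at day 4 (circles) and day 6 (squares) and in p110 alpha Max-null cells (triangles), 1 array on each side, with dotted lines at 2-fold. Ccne2 is high and Aurkb low in Max-null cells on both days, and Pttg1 is high in the p110 alpha line.

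Over both lines, limma called 0 members under Dox and 0.0% of 13534 genes, with 701 genes and 0 members at an unadjusted p under 0.05. Without the p110 alpha line 2 members passed, 1 higher and 1 lower. The difference between the lines, p110 alpha minus Max-null, had 1 residual degree of freedom. Its only spread was that between the Dox arrays of the plain Max-null line, which are from different days. The untreated arrays and the p110 alpha Dox array had no replicates. The fit therefore cannot separate a difference between the lines from variation between arrays. Pttg1, at 2.37, was called higher by it. This call was lost with centred arrays, with quantile normalization or with no filter on low values. Centring moved the median of all genes in this difference by -0.22 and gave 3 genes higher and 51 lower in place of 124 and 133. Ccne2 was at -1.98 and Aurkb at 2.11 in this difference, and neither was called.

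Before Dox, the p110 alpha line was at least 2-fold below the plain Max-null line in 3 members, Pttg1 (-1.40), Ccne2 (-1.30) and Aurkb (-1.08), where 4.78% of all genes were. These are the same untreated arrays that the Dox differences are taken from. Of 17 replication genes 15 were below 0, with a median of -0.22, and of 16 mitotic genes 9 were, with a median of -0.07, against -0.06 over all genes. Centring moved the median of all genes by 0.20 here.

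Among the further replication genes at day 6 of Dox in plain Max-null cells, 32 of 39 were below 0 with a median of -0.37, led by the polymerase subunits Pold2 (-2.24) and Pole2 (-1.42) and by Chaf1b (-1.32). In the p110 alpha line 33 of 39 were above 0 with Dox, with a median of 0.15, against 60.3% above 0 and a median of 0.07 over all genes. Of 58 further mitotic genes 41 were below 0 at day 6, led by the transcription factor Mybl2 (-1.95), the motor Kif20a (-1.30) and the kinase Wee1 (-1.12). Of the G1 genes, Ccnd2 was higher by 3.22 at day 4 and 3.55 at day 6. Markers of other cell types and of stem cells differed between the Dox arrays as well. The mean over 7 endoderm markers was 4.43 untreated, 5.09 at day 4 and 5.66 at day 6, and 4.97 and 4.88 in the p110 alpha line. The trophoblast mean was 6.49, 6.68 and 7.52 on the plain Max-null arrays, and 6.52 and 6.64 in the p110 alpha line. The fibroblast mean was 4.26, 4.48 and 4.87, and 4.31 and 4.41. The stem cell mean was 12.69, 12.62 and 12.21, with 8 of 9 markers below 0 at day 6 and a median difference of -0.50, and 12.62 and 12.71 in the p110 alpha line. The part of these markers in the differences was not tested.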

How the data were processed

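The 18 Affymetrix arrays were deposited as 1 table of log2 values that the authors made with RMA from the affy package, per the submitters' processing notes, with versions not given. By the platform annotation 34945 of 45101 probe sets name 1 gene, 932 several and 9160 none, and 64 controls were left out. A gene took its brightest probe set. Genes entered a fit if at least 2 of its samples exceeded 4.64, the 40th percentile, and an untested pair (1 array a side, counted at 2-fold) if 1 did. limma 3.58.1 (R 4.3.3) was fitted over all genes, with Benjamini-Hochberg adjustment at 0.05, and was tested on simulated data. The number of arrays limits the precision. Samples pair by cell line, so the line, or the parental replicate, was a block; deviations of untreated and treated arrays correlated at 0.56 between parental replicates, 0.11 between c-Myc lines and 0.10 between Max-null lines. Alternatives changed the filter, scaling, probe set rule, prior, block, threshold and arrays used. All 34 members are named genes; from each further list, the 3 genes with the smallest p or, untested, the largest difference are named. Members, lists and motifs were chosen with earlier results of these data known, and the 4-array fit of 2i and the fit without the untreated array of the second parental replicate after seeing the data. Comparisons with LY294002 in serum share their untreated arrays with those of the c-Myc lines.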

Additional observations from a re-analysis of the deposited data

Results flagged for a closer look

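Pttg1 was marked because a fit called its Dox response different between the lines, at 2.37 on the log2 scale, p110 alpha minus plain Max-null. The spread in that fit came only from the Dox days of the plain line, so the call has no replicate check. The difference joins a higher value with Dox in the p110 alpha line to lower values on both days in the plain line, and its untreated array in the p110 alpha line was 1.40 below the plain one. The call was lost under other scalings, as given above.

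Ccne2 was marked because LY294002 went with a change of -0.32 in 2i and with changes of 0.61 and 0.42 in the 2 parental serum pairs, each at least 0.2 in size. This difference between the media was not tested.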

How the results depend on the processing

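Counts are of members called. The shares of all genes called with arrays, lines or pairs left out are not given here, so those counts cannot be set against them. Of 154 other values of the counts, 109 stayed on the same side, within 1.5 times. With no replicate block the count was 4 in place of 10 for LY294002 at day 2, 0 in place of 7 over the 4 pairs and 0 in place of 1 in the c-Myc pairs, and the block changed no other call by that much. With no level filter the counts of the 4-array 2i fit and of the Dox difference were 0, and the latter was also 0 with centred arrays or quantile normalization. The 2i fit gave 17 with a trended, robust prior and 16 at a threshold of 0.1. LY294002 day 5 minus day 2 gave 1 with the 60th percentile filter, with quantile normalization, with the mean of probe sets, with the trended prior and at the 0.1 threshold. At 0.1 the c-Myc pairs gave 5 and the Dox difference 2, and the trended prior gave 2 in the c-Myc pairs. Leaving out arrays, lines or pairs gave 2 to 7 at LY294002 day 2, 5 to 12 at day 5, 0 to 3 for day 5 minus day 2, 0 to 4 for the c-Myc lines against the parental cells, 0 to 12 in the parental pairs, 0 to 12 in the c-Myc pairs, 0 to 17 over 4 pairs, 0 to 3 for the difference of these responses and 0 to 2 for Dox. Of the untested pairs, 2i against serum untreated gave 3 members with the mean of probe sets, 12 with the second serum replicate as reference and 14 at 1.5-fold, in place of 5. With LY294002 it gave 4 centred, 2 with the mean of probe sets and 15 at 1.5-fold, in place of 1. LY294002 in 2i gave 2 and p110 alpha against plain Max-null 6 at 1.5-fold. The value of Pttg1 in 2i reversed to 1.461 with the second serum replicate as reference. Apart from what fewer genes or arrays bring, the cause was not tested. Values near the 40th percentile, such as those of Tyms, have little signal over background.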
